A study of Mus musculus with 18 samples.

Results

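The genes described here encode the nuclear subunits of the mitochondrial respiratory chain and of ATP synthase, together with a group of complex I assembly factors, in kidneys of mice 3 days after obstruction of a ureter. Members were all genes whose array symbol begins with Nduf followed by a, b, c, s or v, is Sdha, Sdhb, Sdhc, Sdhd or Cyc1, or begins with Uqcr, Cox4 to Cox8, or Atp5. The choice used names alone and no measured value, although it was made with earlier results of these data known. It gave 85 of the 12393 genes measured: 6 core subunits of complex I, 27 accessory subunits of complex I, 5 complex I assembly factors, the 4 subunits of complex II, 9 of complex III, 17 of complex IV (Ndufa4 among them), 5 of the catalytic F1 head of ATP synthase and 12 of its membrane part and stalk. Each gene was read from 1 probe set, a group of short probes that together report a transcript, and where a gene had several the brightest on average was used.

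The 18 arrays came from 6 groups of 3 kidneys, described by the labels as biological replicates. C57BL/6 mice were wild type (WT) or lacked the metalloproteinase inhibitor TIMP2 (TIMP2-/-) or TIMP3 (TIMP3-/-), and in each genotype the ipsilateral kidney was taken on day 3 after unilateral ureteral obstruction (UUO) by tying the right ureter, or after a sham operation without the ligature. No age, sex or construction of the knockout alleles is given in the sources used here, and no statement says whether the 3 kidneys of a group shared a litter. All mice, sham controls included, had the same surgery apart from the ligation.

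The respiratory chain passes electrons from NADH (complex I) and succinate (complex II) through coenzyme Q to complex III, and from there through cytochrome c to complex IV, which reduces oxygen. Complexes I, III and IV pump protons across the inner mitochondrial membrane, and ATP synthase uses their return flow to make ATP. A few core subunits are encoded by mitochondrial DNA, and none of those was among the symbols measured. The kidney, and its proximal tubule above all, depends on this oxidative route for the energy of solute reabsorption, and several complex IV subunits exist as a widely expressed form and a form restricted to muscle, testis or lung.

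The members were among the brightest transcripts of the kidney: 69 of 85 lay in the top 10% of all genes by mean level, with a median intensity of 8470 over members. Intensities are the deposited linear values, the array medians lay between 201.75 and 247.9, and values of different genes are not compared with each other because probes differ in brightness. As a check of the labels, Timp3 read between 35.1 and 60.8 on the 6 TIMP3-/- arrays against 3171 to 9040 on the other 12. Timp2 read between 571 and 897 on the 6 TIMP2-/- arrays, below the 971 to 1475 of the WT sham arrays but above the array medians, so this transcript signal was lower and not absent. On the UUO arrays alone Timp2 read 742 to 897 in TIMP2-/- kidneys, against 3521 to 4689 in WT and 4242 to 5304 in TIMP3-/- kidneys. The sources used here do not place its probe set inside or outside the deleted part, which limits this check of the TIMP2-/- label. The sham kidneys carried the 16 proximal tubule markers at summed intensities of 249000 to 263000. The array WT UUO 2 stood apart: its albumin (Alb) intensity was 28110, against 72.7 on WT UUO 1 and 254 on WT UUO 3, and its 16 hepatocyte markers summed to 141000, against 4100 to 22100 on the other 17 arrays. The counts given with this array left out are named as such.

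Of the 85 members, 70 had a promoter window of 300 bases (250 before the start of transcription, 50 after) in the RefSeq table of assembly GRCm38.p6. These windows were searched on both strands for motifs of 8 letters, each a fixed spelling of the core bound by a regulator of nuclear genes for mitochondria: GCATGCGC for NRF1, CAAGGTCA for the estrogen-related receptors (ERR), CCGGAAGT for GABP and AAGATGGC for YY1. The searches were separate, so that a base could count for more than 1 motif. The NRF1 letters were found for 11 members (15.7% of 70), against 5.01% of 9883 genes with a window. The ERR letters were found for 4 members (5.71%, against 1.46% of genes), the YY1 letters for 9 (12.9%, against 4.39%) and the GABP letters for 5 (7.14%, against 7.23%). A match describes the letters only, not a bound site. For NRF1, ERR and YY1 the stretches that follow belong to 1 or 2 matched members each, those with the largest mean fall after UUO whose match lies wholly before the start. For YY1 such a match was found in Atp5j alone, a member called in no UUO comparison. The other YY1 matches reached or passed the start of transcription. They are written on the strand of the gene, with the matched letters (or their reverse complement) in capitals.

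Sdhb, NRF1 letters, chr4:140961177-140961264, plus strand:
Sdhb: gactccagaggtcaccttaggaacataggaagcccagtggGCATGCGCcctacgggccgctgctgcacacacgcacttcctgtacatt
Ndufaf4, NRF1 letters, chr4:24897932-24898019, plus strand:
Ndufaf4: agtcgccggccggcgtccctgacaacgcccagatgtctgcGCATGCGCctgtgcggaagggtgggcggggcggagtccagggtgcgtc
Ndufs5, ERR letters as their reverse complement, chr4:123718367-123718436, minus strand:
Ndufs5: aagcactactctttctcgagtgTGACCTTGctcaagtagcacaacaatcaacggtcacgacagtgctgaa
Atp5l, ERR letters as their reverse complement, chr9:44920743-44920795, minus strand:
Atp5l: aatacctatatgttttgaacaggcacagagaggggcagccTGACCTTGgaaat
Atp5j, YY1 letters, chr16:84835017-84835104, minus strand:
Atp5j: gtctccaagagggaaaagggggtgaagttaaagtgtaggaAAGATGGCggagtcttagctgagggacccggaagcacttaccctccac

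The first base of the NRF1 letters lay at -54 for Sdhb and at -111 for Ndufaf4, counted from the start of transcription, that of the ERR letters at -228 for Ndufs5 and -13 for Atp5l, and that of the YY1 letters at -88 for Atp5j. The remaining NRF1 matches were in Ndufa6, Ndufa8, Ndufaf5, Uqcr11, Uqcrc1, Cox6a1, Atp5g2, Atp5k and Atp5l, so Atp5l held the letters of both NRF1 and ERR. No test set the letters against the changes, and matched members differed among themselves. The log2 changes of Sdhb after UUO in WT, TIMP2-/- and TIMP3-/- kidneys were -0.66, -0.75 and -1.39, and those of Ndufa6, also with the NRF1 letters, were -0.44, -0.08 and -0.27.

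Obstruction for 3 days went with lower levels of most members in all 3 genotypes, and few rose. In WT kidneys 47 of 85 members were lower after UUO than after sham and 2 were higher, by limma's moderated test with Benjamini-Hochberg adjustment over all 12393 genes (adjusted p under 0.05, the rule for every call below). The share of all genes called was 16.2% lower and 16.8% higher in that comparison, so that 55.3% of members were called lower against 16.2% of genes. In TIMP2-/- kidneys 45 members were lower and 1 higher, against 22% and 15.9% of all genes. In TIMP3-/- kidneys 74 were lower and 2 higher, against 38.8% and 25.7% of all genes. The median log2 change (the difference of group means on the log2 scale, UUO minus sham) over members was -0.44 in WT, -0.38 in TIMP2-/- and -0.77 in TIMP3-/- kidneys, against -0.09, -0.12 and -0.19 over all genes. These are whole kidneys, and fewer cells of a type cannot be told apart from less RNA per cell.

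Tubule markers moved in the same direction in the same arrays. All 16 proximal tubule markers were lower after UUO in WT, 14 in TIMP2-/- and 16 in TIMP3-/- kidneys, and their summed intensity ranged over 81900 to 167000, 131000 to 175000 and 72200 to 90200 on the UUO arrays of these genotypes, against 249000 to 263000 on all sham arrays. Of 14 markers of the loop, distal tubule and collecting duct, 8, 9 and 12 were lower, with sums of 24200 to 50900, 34200 to 39500 and 19400 to 33200 after UUO against 67600 to 89500 after sham. Macrophage markers (15 of 15 in each genotype) and fibroblast markers (12, 11 and 12 of 12) were higher: the macrophage sums were 7300 to 13300 after sham and 48400 to 108000 after UUO, and the fibroblast sums 10400 to 17700 and 69900 to 200000. The part of these shifts in the fall of the members was not tested.

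**Figure D1:**
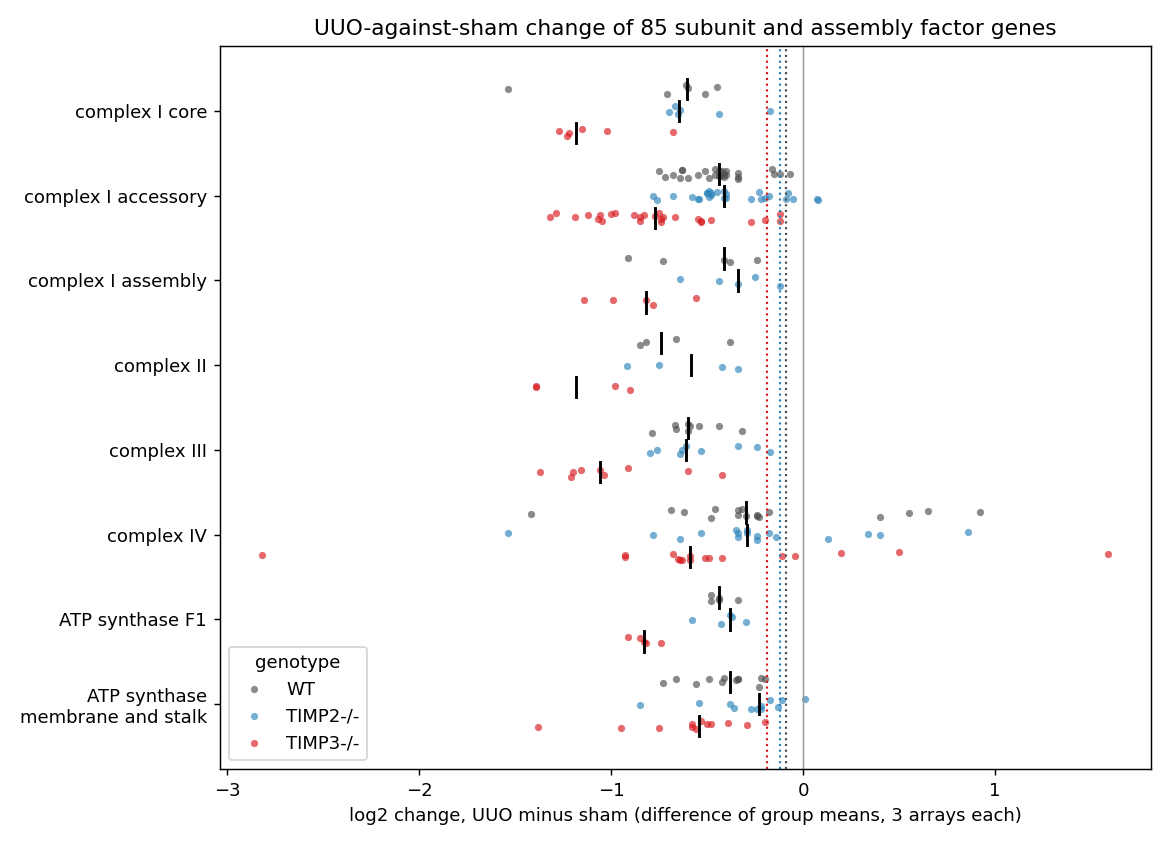
Log2 change, UUO minus sham, of each of the 85 members (points) by complex and genotype (colours), from group means of 3 arrays each; short black bars are the medians of the members of a group, and dotted lines the medians over all 12393 genes (-0.09 in WT, -0.12 in TIMP2-/- and -0.19 in TIMP3-/-). Each group's median lies left of the all-gene line of its genotype, the TIMP3-/- medians lie farthest left, and the few points right of 0 are mostly complex IV members.

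The fall was seen on each UUO array. Measured against the sham mean of the same genotype, the median member was at -0.40, -0.67 and -0.24 on the 3 WT UUO arrays, at -0.43, -0.44 and -0.28 on the TIMP2-/- UUO arrays and at -0.83, -0.92 and -0.56 on the TIMP3-/- UUO arrays. The medians of all genes on those arrays were -0.08, -0.12 and -0.05, then -0.14, -0.16 and -0.05, then -0.18, -0.32 and -0.10. The lowest TIMP3-/- array therefore lay below every WT and TIMP2-/- array, whereas TIMP3-/- UUO 3, at -0.56, lay above WT UUO 2, at -0.67. On the UUO arrays between 75 and 81 of 85 members were below their sham mean. All 3 UUO values lay below all 3 sham values for 58 members in WT (26.7% of all genes did so), 64 in TIMP2-/- (33.2%) and 75 in TIMP3-/- kidneys (39.5%).

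**Figure D2:**
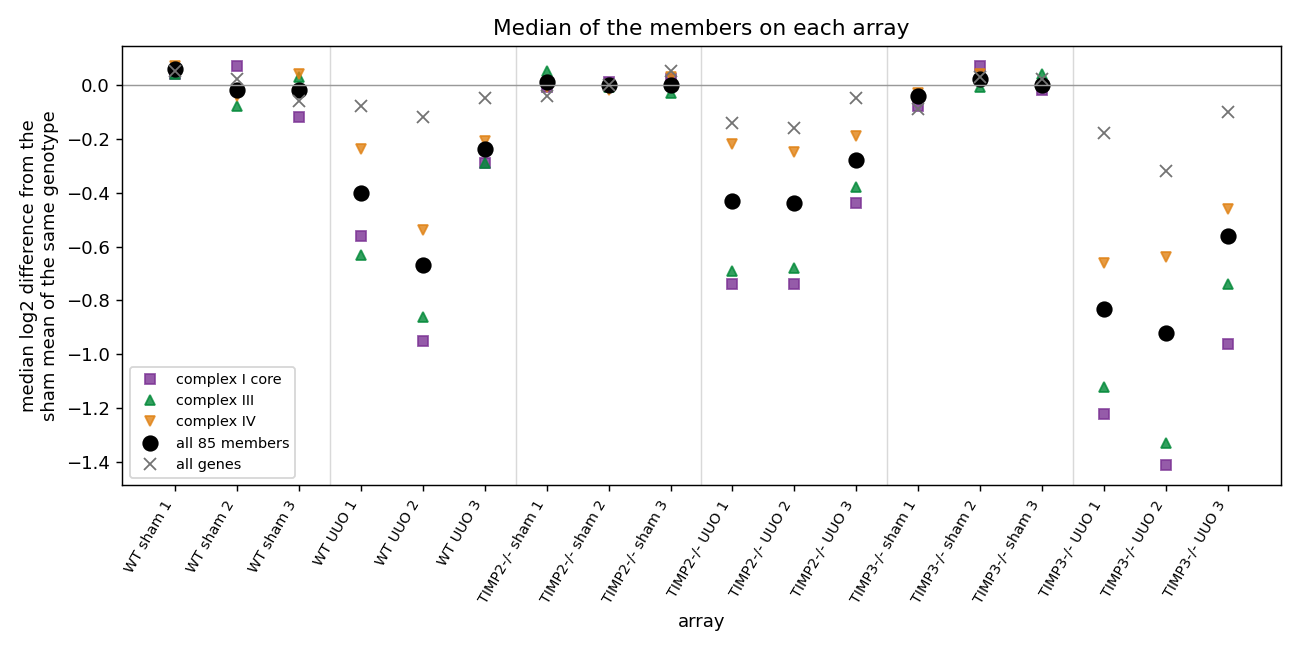
Median log2 difference of the members, and of the subunits of complex I core, complex III and complex IV, from the sham mean of the same genotype on each of the 18 arrays, with the median over all 12393 genes as crosses. Sham arrays lie near 0, the member medians of UUO arrays lie between -0.24 and -0.92, and complex IV lies nearer 0 than complex I core on every UUO array.

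Across genotypes 38 members were lower in all 3 UUO comparisons, 16 in 2 and 20 in 1, which was the TIMP3-/- comparison in each case, while 11 were lower in none. The 20 were Ndufa7, Ndufb1, Ndufb6, Ndufc2, Ndufaf5, Ndufaf7, Sdhd, Cox5a, Cox5b, Cox6a1, Cox6b1, Cox7a2, Cox8c, Ndufa4, Atp5e, Atp5g2, Atp5g3, Atp5j2, Atp5l and Atp5md. With the replicate number as a block, 49 members were lower in TIMP2-/- kidneys, and of the 20 genes Cox6b1 (adjusted p = 0.0473 against 0.0592), Cox8c (0.0196 against 0.059) and Atp5g2 (0.0477 against 0.0629) passed there. For none of the 20 was the difference between genotypes in the response itself called, as given below. The 11 were Ndufa2, Ndufa5, Ndufa6, Ndufs4, Cox6c, Cox7a2l, Cox6b2, Cox7c, Cox8b, Atp5j and Atp5mpl. Some of these varied between sham arrays more than they differed after UUO: Cox6c, a small complex IV subunit, read 19730, 11420 and 17730 on the WT sham arrays and 13560, 7864 and 5840 on the TIMP2-/- sham arrays, and 14980, 11770 and 13960 and 8969, 9939 and 9153 after UUO.

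The WT and TIMP2-/- counts rested on single arrays more than the TIMP3-/- count did. Without WT UUO 2 the WT count was 22 lower (25.9% of members, against 8.68% of all genes), with a median of -0.33. In TIMP2-/- kidneys it was 18 without TIMP2-/- UUO 2, 20 without TIMP2-/- UUO 1 and 29 without TIMP2-/- sham 3, where 9.74%, 10.3% and 11.8% of all genes were lower. The TIMP3-/- count ranged from 69 to 72 with any 1 of its 6 arrays left out. Of the called members, 24 of 49 in WT, 17 of 46 in TIMP2-/- and 67 of 76 in TIMP3-/- kidneys were called whichever array of the comparison was left out. The split of calls over all genes also moved with scaling: lower genes made up 49.1%, 58% and 60.2% of all calls in the 3 genotypes, and 71.2%, 78.6% and 72.5% once each array was centred on its gene median, which raised the members' lower counts to 74, 68 and 77 and the share of all genes called lower to 31.8%, 41.2% and 51.4%.

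Complex I oxidises NADH, and its core subunits carry the flavin and the iron-sulfur clusters. Of the 6 core members 4, 4 and 6 were lower in WT, TIMP2-/- and TIMP3-/- kidneys, with medians of -0.60, -0.64 and -1.19. Ndufs1, an iron-sulfur subunit of the NADH-oxidising arm, had the largest mean change of the core. After sham it read 3259, 3379 and 4412 in WT, 2614, 2694 and 1960 in TIMP2-/- and 3792, 2316 and 2297 in TIMP3-/- kidneys. After UUO it read 1114, 1150 and 1532 in WT, 1683, 1908 and 1734 in TIMP2-/- and 1190, 1647 and 1225 in TIMP3-/- kidneys. The mean sham level was highest in WT kidneys, and in each genotype all UUO values lay below all sham values. Its log2 changes were -1.54 ± 0.21 in WT (adjusted p = 5.97e-05), -0.44 ± 0.21 in TIMP2-/- (adjusted p = 0.11) and -1.02 ± 0.21 in TIMP3-/- kidneys (adjusted p = 0.000809), so it was lower by 65.7% in WT. Ndufs1 was the WT member with the smallest adjusted p, and in TIMP2-/- kidneys its change did not pass.

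Ndufv2, an iron-sulfur subunit that sits beside the flavin site, had the smallest mean change of the core. Its sham intensities were 9244, 8550 and 9691 in WT, 7712, 7396 and 6785 in TIMP2-/- and 9789, 8074 and 8688 in TIMP3-/- kidneys. Its UUO intensities were 6552, 5351 and 6320 in WT, 5988, 6867 and 6553 in TIMP2-/- and 5317, 5119 and 6079 in TIMP3-/- kidneys. UUO and sham values overlapped in TIMP2-/- kidneys only, where the sham level was also the lowest. The log2 changes were -0.60 ± 0.12 in WT (adjusted p = 0.00141), -0.17 ± 0.12 in TIMP2-/- (adjusted p = 0.254) and -0.68 ± 0.12 in TIMP3-/- kidneys (adjusted p = 0.000228). Ndufv1 binds the flavin that accepts the electrons of NADH. It read 10290, 11690 and 9012 in WT, 12520, 13240 and 14010 in TIMP2-/- and 10940, 12800 and 11650 in TIMP3-/- kidneys after sham. The UUO values were 7671, 5670 and 9699 in WT, 7935, 7937 and 9632 in TIMP2-/- and 5048, 4566 and 6421 in TIMP3-/- kidneys, with WT UUO 3 inside the WT sham range. Its log2 changes were -0.45 ± 0.18 in WT (adjusted p = 0.0639), -0.65 ± 0.18 in TIMP2-/- (adjusted p = 0.0124) and -1.15 ± 0.18 in TIMP3-/- kidneys (adjusted p = 8.67e-05). Ndufs3, Ndufs7 and Ndufs8, which form the arm that leads electrons to coenzyme Q, changed by -0.71, -0.64 and -1.23, by -0.61, -0.70 and -1.27 and by -0.51, -0.67 and -1.22 in WT, TIMP2-/- and TIMP3-/- kidneys. All of these passed except Ndufs8 in WT (adjusted p = 0.052). The Ndufs7 call in WT ended without WT sham array 1 or 2 or UUO array 1 or 2, each left out alone (adjusted p = 0.0564 to 0.133), and its TIMP2-/- call ended without TIMP2-/- UUO 2 (adjusted p = 0.052). The TIMP2-/- calls of Ndufs8 and Ndufv1 ended without TIMP2-/- UUO 1 or TIMP2-/- UUO 2 (adjusted p = 0.0632 to 0.0679 and 0.0531 to 0.0537).

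The accessory subunits of complex I surround the core and are needed for its assembly and stability. Of 27 measured, 16, 17 and 23 were lower in WT, TIMP2-/- and TIMP3-/- kidneys and none was higher, with medians of -0.44, -0.41 and -0.77. The largest mean change was that of Ndufa10, an accessory subunit at the base of the membrane arm. It read 11490, 11280 and 10540 in WT, 11950, 12460 and 12320 in TIMP2-/- and 10710, 12310 and 12290 in TIMP3-/- kidneys after sham. After obstruction the values were 6486, 5262 and 8437 in WT, 6549, 6517 and 8504 in TIMP2-/- and 4399, 3939 and 6033 in TIMP3-/- kidneys. No UUO value reached a sham value in any genotype, and the TIMP3-/- UUO values lay below the TIMP2-/- ones. The log2 changes were -0.75 ± 0.18 in WT (adjusted p = 0.00454), -0.78 ± 0.18 in TIMP2-/- (adjusted p = 0.00412) and -1.32 ± 0.18 in TIMP3-/- kidneys (adjusted p = 2.42e-05), and these calls held with each array left out.

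Ndufa2, an accessory subunit of the NADH-oxidising arm, stayed nearest to its sham level. Sham kidneys gave 8551, 6825 and 8709 in WT, 7496, 6431 and 5753 in TIMP2-/- and 7801, 7250 and 7548 in TIMP3-/- kidneys. Obstructed kidneys gave 7985, 6778 and 7327 in WT, 6916, 6971 and 6637 in TIMP2-/- and 5961, 6543 and 7174 in TIMP3-/- kidneys. The groups overlapped in WT and TIMP2-/- kidneys, and all TIMP3-/- UUO values lay below the TIMP3-/- sham values. Its log2 changes were -0.12, 0.07 and -0.20, none called (adjusted p = 0.493, 0.681 and 0.169). On the probe sets used, Ndufa5, Ndufa6 and Ndufs4 were not called either, and their UUO and sham values overlapped in every genotype. The set used for Ndufs4 changed by -0.55, 0.08 and -0.12 in WT, TIMP2-/- and TIMP3-/- kidneys. Its dimmer probe sets changed by -1.04, -0.30 and -1.03 and by -0.65, -0.27 and -0.44. The result for Ndufs4 therefore depends on the probe set. Without WT UUO 2, 8 of the 27 accessory subunits were lower in WT kidneys.

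4 accessory subunits were read in full because they had small p-values between genotypes, and their changes within genotypes are given here. Ndufa12, which joins the NADH-oxidising arm late in assembly, read 13400, 12610 and 12370 in WT, 14530, 14440 and 14410 in TIMP2-/- and 12800, 13100 and 12970 in TIMP3-/- kidneys after sham. Its values after UUO were 9953, 7366 and 11620 in WT, 10250, 10310 and 12210 in TIMP2-/- and 5489, 6200 and 6938 in TIMP3-/- kidneys. The 3 TIMP3-/- UUO values lay below all other values, sham or UUO. The log2 changes were -0.43 ± 0.14 in WT (adjusted p = 0.032), -0.41 ± 0.14 in TIMP2-/- (adjusted p = 0.0371) and -1.07 ± 0.14 in TIMP3-/- kidneys (adjusted p = 2.58e-05). The WT call ended without WT sham array 1, 2 or 3 or UUO array 1 or 2, each left out alone (adjusted p = 0.0538 to 0.185) and the TIMP2-/- call ended without TIMP2-/- sham array 1, 2 or 3 or UUO array 1 or 2, each left out alone (adjusted p = 0.0772 to 0.124). The 2 other bright probe sets of Ndufa12 changed by -0.43, -0.39 and -0.94 and by -0.48, -0.51 and -0.93, whereas a dim one, the only one whose name carries no suffix for possible cross-matching, gave -0.08, 0.06 and 0.53.

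Ndufa8, an accessory subunit facing the intermembrane space, read 7313, 6620 and 6166 in WT, 7570, 7350 and 7247 in TIMP2-/- and 6507, 6999 and 6751 in TIMP3-/- kidneys after sham. In obstructed kidneys its values were 4986, 4390 and 5966 in WT, 5009, 4947 and 5706 in TIMP2-/- and 3688, 3202 and 4179 in TIMP3-/- kidneys. Ndufa8 was lower on every UUO array than on every sham array of its genotype, and lower on every TIMP3-/- UUO array than on every other UUO array. Its log2 changes were -0.40 ± 0.13 in WT (adjusted p = 0.0284), -0.50 ± 0.13 in TIMP2-/- (adjusted p = 0.00837) and -0.88 ± 0.13 in TIMP3-/- kidneys (adjusted p = 5.44e-05). The WT call ended without WT sham array 1 or 2 or UUO array 1 or 2, each left out alone (adjusted p = 0.0591 to 0.144). Ndufb8, a membrane arm subunit often probed as a readout of assembled complex I, read 13200, 14280 and 12300 in WT, 14290, 14590 and 14600 in TIMP2-/- and 12540, 13480 and 13870 in TIMP3-/- kidneys after sham. The UUO arrays gave 10850, 8736 and 12120 in WT, 11000, 10680 and 11180 in TIMP2-/- and 6601, 6409 and 9490 in TIMP3-/- kidneys. UUO and sham values were separate in each genotype, and the WT UUO and TIMP3-/- UUO values overlapped. The changes were -0.34 ± 0.15 in WT (adjusted p = 0.0909), -0.40 ± 0.15 in TIMP2-/- (adjusted p = 0.0427) and -0.85 ± 0.15 in TIMP3-/- kidneys (adjusted p = 0.000226), and the TIMP2-/- call ended without any 1 of the 6 arrays (adjusted p = 0.0568 to 0.12). Ndufc1, a small membrane arm subunit, read 13570, 13360 and 12700 in WT, 13740, 11190 and 9163 in TIMP2-/- and 12740, 11760 and 11820 in TIMP3-/- kidneys after sham. It read 8842, 6659 and 9534 in WT, 6963, 7905 and 7721 in TIMP2-/- and 5677, 5519 and 6250 in TIMP3-/- kidneys after UUO. Again no UUO value reached a sham value of its genotype, although TIMP2-/- sham 3 was low. The log2 changes of Ndufc1 were -0.68 ± 0.15 in WT (adjusted p = 0.00293), -0.58 ± 0.15 in TIMP2-/- (adjusted p = 0.00894) and -1.06 ± 0.15 in TIMP3-/- kidneys (adjusted p = 3.86e-05), and none of these calls ended with an array left out.

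Complex I is built with the help of assembly factors that are absent from the finished complex. Of 5 in this group 2, 2 and 5 were lower, with medians of -0.41, -0.34 and -0.82. Ndufaf3, which acts with Ndufaf4 on the coenzyme Q-binding arm, had the largest mean change. Sham intensities were 1718, 1491 and 1115 in WT, 1918, 1796 and 1863 in TIMP2-/- and 1533, 1876 and 1750 in TIMP3-/- kidneys. UUO intensities were 1076, 819.7 and 1387 in WT, 1162, 1116 and 1314 in TIMP2-/- and 732, 632 and 1011 in TIMP3-/- kidneys. The WT groups overlapped, because WT sham 3 was low and WT UUO 3 high, and the other genotypes did not. The log2 changes were -0.41 ± 0.20 in WT (adjusted p = 0.137), -0.64 ± 0.20 in TIMP2-/- (adjusted p = 0.0243) and -1.14 ± 0.20 in TIMP3-/- kidneys (adjusted p = 0.000276), and the TIMP2-/- call ended without TIMP2-/- sham array 1 or 3 or UUO array 1 or 2, each left out alone (adjusted p = 0.0605 to 0.0886). Ndufaf7, a methyltransferase that modifies a core subunit, had the smallest mean change. It read 831, 701 and 728 in WT, 774, 770.4 and 802 in TIMP2-/- and 870.5, 897 and 846 in TIMP3-/- kidneys after sham. After UUO the values were 641, 531 and 758 in WT, 683, 693 and 780.3 in TIMP2-/- and 466, 459 and 612 in TIMP3-/- kidneys. The groups were separate in TIMP3-/- kidneys and overlapped in WT and TIMP2-/- kidneys. The log2 changes of Ndufaf7 were -0.24 ± 0.14 in WT (adjusted p = 0.203), -0.12 ± 0.14 in TIMP2-/- (adjusted p = 0.492) and -0.78 ± 0.14 in TIMP3-/- kidneys (adjusted p = 0.000301). Ndufaf1, part of the complex that assembles the membrane arm, changed by -0.73, -0.34 and -0.99, called in each, with the TIMP2-/- call ending without TIMP2-/- sham array 1, 2 or 3 or UUO array 1 or 2, each left out alone (adjusted p = 0.0619 to 0.126). Ndufaf4 changed by -0.91, -0.44 and -0.56, called in WT and TIMP3-/- kidneys, and the TIMP3-/- call ended without TIMP3-/- sham array 1 or 2 or UUO array 1 or 3, each left out alone (adjusted p = 0.0564 to 0.11).

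Complex II oxidises succinate and is also an enzyme of the tricarboxylic acid cycle. Of its 4 subunits 3, 3 and 4 were lower, with medians of -0.74, -0.58 and -1.18. Without WT UUO 2 the WT count was 1 of 4. Sdhc, a membrane anchor of the complex, changed most on average. After sham the intensities were 5351, 5694 and 5946 in WT, 6106, 6062 and 6213 in TIMP2-/- and 4564, 5828 and 6654 in TIMP3-/- kidneys. After UUO they were 3055, 2570 and 4157 in WT, 3048, 3086 and 3606 in TIMP2-/- and 1904, 1507 and 3457 in TIMP3-/- kidneys. The values did not overlap within any genotype, and TIMP3-/- UUO 3 stood above the other TIMP3-/- UUO arrays and inside the WT UUO range. The estimated changes were -0.82 ± 0.24 in WT (adjusted p = 0.0171), -0.92 ± 0.24 in TIMP2-/- (adjusted p = 0.00952) and -1.39 ± 0.24 in TIMP3-/- kidneys (adjusted p = 0.00024), and the WT call ended without WT sham array 3 or UUO array 1 or 2, each left out alone (adjusted p = 0.0516 to 0.0851). Sdhd, the second anchor, read 6486, 5808 and 6186 in WT, 6414, 5760 and 6085 in TIMP2-/- and 6609, 6686 and 7337 in TIMP3-/- kidneys after sham. In UUO kidneys it read 4939, 3963 and 5444 in WT, 4667, 4784 and 4968 in TIMP2-/- and 3123, 2924 and 4622 in TIMP3-/- kidneys. No UUO value reached a sham value of its genotype. The changes of Sdhd were -0.38 ± 0.16 in WT (adjusted p = 0.0754), -0.34 ± 0.16 in TIMP2-/- (adjusted p = 0.0951) and -0.98 ± 0.16 in TIMP3-/- kidneys (adjusted p = 0.000104), so that only the TIMP3-/- comparison passed.

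Sdhb, the iron-sulfur subunit whose promoter stretch is shown above, read 16760, 16570 and 13990 in WT, 17950, 19130 and 19500 in TIMP2-/- and 15980, 17730 and 17630 in TIMP3-/- kidneys after sham. On the UUO arrays it read 9696, 7577 and 13520 in WT, 10750, 9936 and 13180 in TIMP2-/- and 6740, 4985 and 8260 in TIMP3-/- kidneys. WT UUO 3 came close to the lowest WT sham value, and all TIMP3-/- UUO values lay below all TIMP2-/- UUO values. UUO changed it by -0.66 ± 0.20 in WT (adjusted p = 0.0204), -0.75 ± 0.20 in TIMP2-/- (adjusted p = 0.0101) and -1.39 ± 0.20 in TIMP3-/- kidneys (adjusted p = 4.42e-05), the last a fall of 61.8%. The WT call ended without WT sham array 1 or 2 or UUO array 1 or 2, each left out alone (adjusted p = 0.0579 to 0.116) and the TIMP2-/- call ended without TIMP2-/- UUO 2 (adjusted p = 0.0523). Sdha, the flavoprotein that oxidises succinate, changed by -0.85, -0.42 and -0.90, called in each, with the TIMP2-/- call ending without TIMP2-/- sham array 2 or UUO array 1 or 2, each left out alone (adjusted p = 0.0573 to 0.0679).

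Complex III passes electrons from coenzyme Q to cytochrome c. All 9 members were lower in WT and TIMP3-/- kidneys and 7 in TIMP2-/- kidneys, with medians of -0.60, -0.61 and -1.06. Cyc1, the cytochrome c1 that hands electrons to cytochrome c, had the largest mean change. Its sham values were 10320, 11550 and 9030 in WT, 13170, 13010 and 14720 in TIMP2-/- and 10450, 13140 and 11270 in TIMP3-/- kidneys. Its UUO values were 6718, 4942 and 9363 in WT, 7617, 6865 and 9203 in TIMP2-/- and 4346, 3743 and 5459 in TIMP3-/- kidneys. In WT kidneys WT UUO 3 lay inside the sham range, and in the knockouts UUO and sham were separate. On the log2 scale it changed by -0.60 ± 0.20 in WT (adjusted p = 0.035), -0.80 ± 0.20 in TIMP2-/- (adjusted p = 0.00806) and -1.37 ± 0.20 in TIMP3-/- kidneys (adjusted p = 5.72e-05). The WT call of Cyc1 ended without WT sham array 1 or 2 or UUO array 1 or 2, each left out alone (adjusted p = 0.0787 to 0.191). Uqcrb, a small subunit that binds near the coenzyme Q site, had the smallest mean change and read 28840, 23300 and 29610 in WT, 22380, 22330 and 19710 in TIMP2-/- and 24680, 20610 and 23260 in TIMP3-/- kidneys after sham. After UUO it read 23130, 17220 and 20190 in WT, 17940, 19600 and 19590 in TIMP2-/- and 15490, 19710 and 16230 in TIMP3-/- kidneys. The values were separate within each genotype by small margins. The changes of Uqcrb were -0.44 ± 0.14 in WT (adjusted p = 0.026), -0.17 ± 0.14 in TIMP2-/- (adjusted p = 0.336) and -0.42 ± 0.14 in TIMP3-/- kidneys (adjusted p = 0.017). The WT call ended without WT sham array 1 or 3 or UUO array 2, each left out alone (adjusted p = 0.0858 to 0.133), and the TIMP3-/- call ended without TIMP3-/- sham array 1 or 3 or UUO array 1, each left out alone (adjusted p = 0.0502 to 0.0681). The Rieske iron-sulfur protein gene Uqcrfs1 changed by -0.79, -0.63 and -1.21 and the core protein genes Uqcrc1 and Uqcrc2 by -0.59, -0.76 and -1.20 and by -0.66, -0.34 and -0.91, each called in every genotype. The Uqcrfs1 call in TIMP2-/- kidneys ended without TIMP2-/- UUO 1 (adjusted p = 0.0535). That of Uqcrc1 ended without WT sham array 1, 2 or 3 or UUO array 1 or 2, each left out alone (adjusted p = 0.0597 to 0.16) in WT and without TIMP2-/- UUO 2 (adjusted p = 0.0507) in TIMP2-/- kidneys. The TIMP2-/- call of Uqcrc2 ended without TIMP2-/- sham array 1, 2 or 3 or UUO array 1 or 2, each left out alone (adjusted p = 0.0569 to 0.133). Without WT UUO 2, 3 of the 9 members were lower in WT kidneys.

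**Figure D3:**
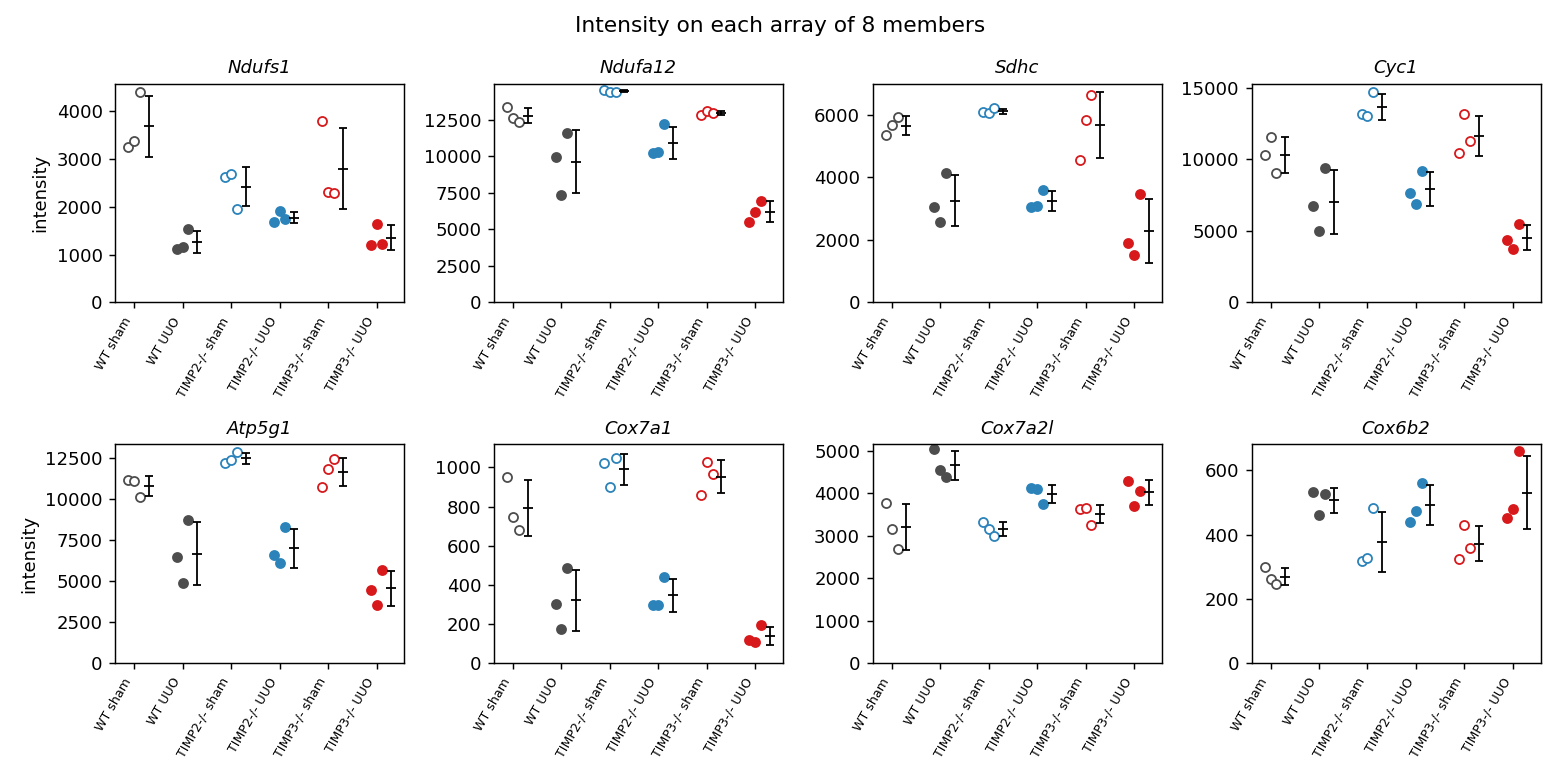
Intensity on each array (points, open for sham and filled for UUO) of 8 members, with the mean and SD of the 3 arrays of a group beside them; each axis starts at 0 and belongs to 1 gene. Ndufs1, Ndufa12, Sdhc, Cyc1, Atp5g1 and Cox7a1 are lower after UUO, most of them lowest in TIMP3-/- kidneys, whereas Cox7a2l is higher on every UUO array than on the sham arrays of its genotype, and Cox6b2 is so in WT and TIMP3-/- kidneys.

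Complex IV, cytochrome c oxidase, had the smallest share of members called lower in TIMP3-/- kidneys. Of its 17 members 4, 5 and 12 were lower and 2, 1 and 2 higher, with medians of -0.30, -0.29 and -0.59. The lower shares were 23.5%, 29.4% and 70.6%, near the 16.2% and 22% of all genes in WT and TIMP2-/- kidneys. Cox5a and Cox5b, widely expressed subunits bound to the catalytic core, changed by -0.24, -0.24 and -0.49 and by -0.32, -0.29 and -0.63 in WT, TIMP2-/- and TIMP3-/- kidneys and passed only in the last. Ndufa4, once counted with complex I and now with complex IV, changed by -0.48, -0.24 and -0.51, and its call in TIMP3-/- kidneys ended without TIMP3-/- sham array 1, 2 or 3 or UUO array 1 or 3, each left out alone (adjusted p = 0.0512 to 0.11). The mean changes farthest from 0 and nearest to 0 among the members chosen by complex, those of Cox7a1 and Cox8b, were both in complex IV.

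Cox7a1, the isoform of subunit 7a known from heart, skeletal muscle and brown fat, fell more than any other member on average. After sham it read 951, 746 and 680.1 in WT, 1021, 899 and 1048 in TIMP2-/- and 861, 1028 and 968 in TIMP3-/- kidneys. After UUO it read 301, 172 and 486 in WT, 297, 299 and 441 in TIMP2-/- and 117, 107 and 193 in TIMP3-/- kidneys. Every UUO value lay below every sham value, the 3 TIMP3-/- UUO values were below all TIMP2-/- UUO values, and WT UUO 2 was inside the TIMP3-/- range. The differences on the log2 scale were -1.42 ± 0.30 in WT (adjusted p = 0.00218), -1.54 ± 0.30 in TIMP2-/- (adjusted p = 0.00162) and -2.82 ± 0.30 in TIMP3-/- kidneys (adjusted p = 3.89e-06), falls of 62.6%, 65.6% and 85.9%. These calls held with each array left out. The widely expressed partner Cox7a2 read 21850, 15420 and 20000 in WT, 17540, 16090 and 15140 in TIMP2-/- and 19280, 17350 and 17880 in TIMP3-/- kidneys after sham. In UUO kidneys it read 16730, 12710 and 15730 in WT, 13970, 14700 and 15520 in TIMP2-/- and 11520, 11630 and 13150 in TIMP3-/- kidneys. UUO and sham values of Cox7a2 were separate only in TIMP3-/- kidneys. Its changes were -0.34 ± 0.14 in WT (adjusted p = 0.0739), -0.14 ± 0.14 in TIMP2-/- (adjusted p = 0.43) and -0.59 ± 0.14 in TIMP3-/- kidneys (adjusted p = 0.00219). The 12 skeletal and heart muscle markers summed to 890 to 1130 on the sham arrays and 761 to 1330 on the UUO arrays, and 1, 1 and 5 of the 12 were lower and 0, 0 and 1 higher. The lower shares, 8.33%, 8.33% and 41.7%, were below or near the 16.2%, 22% and 38.8% of all genes. The higher marker was Acta1, the skeletal muscle actin (1.27, 0.62 and 2.15, adjusted p = 0.00455 in TIMP3-/- kidneys), whereas Tcap (-0.47, -0.42 and -0.92) and Atp2a1 (-0.31, -0.45 and -0.55) were lower in TIMP3-/- kidneys. Their part in the fall of Cox7a1 was not tested.

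In the isoform pairs of subunits 6a and 4 both forms had changes below 0 in every genotype. Cox6a1 is the widely expressed form of subunit 6a, and it read 33760, 34250 and 32270 in WT, 35800, 35040 and 35860 in TIMP2-/- and 33960, 35450 and 34200 in TIMP3-/- kidneys after sham. The UUO intensities were 29790, 25930 and 33190 in WT, 31260, 30600 and 32550 in TIMP2-/- and 25030, 25270 and 27370 in TIMP3-/- kidneys. It changed by -0.18, -0.18 and -0.42, called in TIMP3-/- kidneys alone (adjusted p = 0.00264). The other bright probe set of Cox6a1 changed by -0.39, -0.43 and -0.78, nearer to the changes of Cox6a2 given next. Cox6a2, the muscle form, read 234, 213 and 273 in WT, 281, 281 and 291 in TIMP2-/- and 224, 306 and 305 in TIMP3-/- kidneys after sham. The UUO values were 149.8, 131 and 166 in WT, 159.7, 147 and 194 in TIMP2-/- and 144, 127 and 166 in TIMP3-/- kidneys, below all sham values in each genotype. Its changes of -0.69 ± 0.16 in WT (adjusted p = 0.0037), -0.78 ± 0.16 in TIMP2-/- (adjusted p = 0.00202) and -0.93 ± 0.16 in TIMP3-/- kidneys (adjusted p = 0.000186) were each called, and none of these calls ended with an array left out. The Cox6a2 values lay on both sides of the array medians (201.75 to 247.9). Whether this probe set detects the muscle form in kidney was not tested. Cox4i1, the widely expressed form of subunit 4, read 23190, 25100 and 21630 in WT, 25400, 25800 and 27280 in TIMP2-/- and 23550, 25650 and 25070 in TIMP3-/- kidneys after sham. Obstructed kidneys gave 19650, 16880 and 23020 in WT, 20030, 19810 and 22060 in TIMP2-/- and 15280, 14240 and 17100 in TIMP3-/- kidneys. WT UUO 3 was inside the WT sham range, and the knockouts' groups were separate. The changes were -0.24 ± 0.12 in WT (adjusted p = 0.139), -0.34 ± 0.12 in TIMP2-/- (adjusted p = 0.0373) and -0.68 ± 0.12 in TIMP3-/- kidneys (adjusted p = 0.000288), and the TIMP2-/- call ended without TIMP2-/- sham array 1, 2 or 3 or UUO array 1 or 2, each left out alone (adjusted p = 0.0611 to 0.121). Cox4i2, the form known from lung, read 141, 121 and 127 in WT, 125, 129 and 143 in TIMP2-/- and 107, 118 and 137 in TIMP3-/- kidneys after sham. It read 87.2, 86.5 and 112 in WT, 75.1, 87.6 and 116 in TIMP2-/- and 76.8, 71.4 and 82.4 in TIMP3-/- kidneys after UUO, low values that were nonetheless separate from sham in each genotype. Its changes were -0.46 ± 0.16 in WT (adjusted p = 0.0367), -0.53 ± 0.16 in TIMP2-/- (adjusted p = 0.0168) and -0.64 ± 0.16 in TIMP3-/- kidneys (adjusted p = 0.00276). The WT call ended without WT sham array 1, 2 or 3 or UUO array 1 or 2, each left out alone (adjusted p = 0.0515 to 0.132), and the TIMP2-/- call ended without TIMP2-/- sham array 3 or UUO array 1 or 2, each left out alone (adjusted p = 0.0646 to 0.098).

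Subunit 8 is small and has a widely expressed form, Cox8a, a muscle and brown fat form, Cox8b, and a testis form, Cox8c. Cox8a read 11240, 11300 and 11700 in WT, 11290, 12160 and 12170 in TIMP2-/- and 11520, 11260 and 12540 in TIMP3-/- kidneys after sham. After UUO it read 7396, 6131 and 9060 in WT, 6928, 7272 and 8691 in TIMP2-/- and 5752, 5443 and 7462 in TIMP3-/- kidneys, with no overlap in any genotype. Its changes were -0.62 ± 0.15 in WT (adjusted p = 0.00513), -0.64 ± 0.15 in TIMP2-/- (adjusted p = 0.00459) and -0.93 ± 0.15 in TIMP3-/- kidneys (adjusted p = 0.000108). Cox8b had the mean change nearest 0 of complex IV, and it read 88.5, 106 and 163 in WT, 141, 543 and 394 in TIMP2-/- and 146, 132 and 132 in TIMP3-/- kidneys after sham. After UUO the values were 153, 245 and 94.2 in WT, 304, 303 and 160.1 in TIMP2-/- and 215, 101 and 107 in TIMP3-/- kidneys. The groups overlapped in every genotype, and the TIMP2-/- sham arrays alone ranged from 141 to 543. The changes of Cox8b were 0.40, -0.35 and -0.04, none called. Cox8c read 342, 346 and 376 in WT, 389, 378 and 425 in TIMP2-/- and 364, 375 and 416 in TIMP3-/- kidneys after sham. In UUO kidneys it read 301, 236 and 307 in WT, 299.5, 293 and 354 in TIMP2-/- and 235, 235 and 299 in TIMP3-/- kidneys. The values were separate within each genotype, and the changes were -0.34 ± 0.13 in WT (adjusted p = 0.0603), -0.34 ± 0.13 in TIMP2-/- (adjusted p = 0.059) and -0.59 ± 0.13 in TIMP3-/- kidneys (adjusted p = 0.00158). The lowest Cox8c values lay within the range of the array medians (201.75 to 247.9). Whether its probe set detects the testis form in kidney was not tested.

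The members that rose were Cox7a2l, Cox6b2 and Cox7c, all of complex IV by name. Cox7a2l, known as a factor that joins complexes III and IV into supercomplexes, read 3764, 3158 and 2696 in WT, 3318, 3148 and 3004 in TIMP2-/- and 3622, 3646 and 3256 in TIMP3-/- kidneys after sham. After UUO the intensities were 5035, 4555 and 4377 in WT, 4114, 4111 and 3750 in TIMP2-/- and 4299, 3702 and 4061 in TIMP3-/- kidneys. Every UUO value was above every sham value of its genotype. As log2 changes these came to 0.55 ± 0.12 in WT (adjusted p = 0.00325), 0.34 ± 0.12 in TIMP2-/- (adjusted p = 0.0425) and 0.20 ± 0.12 in TIMP3-/- kidneys (adjusted p = 0.171), so that the TIMP3-/- change did not pass. The TIMP2-/- call ended without TIMP2-/- sham array 1, 2 or 3 or UUO array 1 or 2, each left out alone (adjusted p = 0.0577 to 0.129), and centring arrays on the gene median ended it too (0.12, adjusted p = 0.378). Centring also turned the TIMP3-/- change, to -0.04 (adjusted p = 0.787). Cox6b2, the testis form of subunit 6b, read 298, 262 and 247 in WT, 318, 328 and 484 in TIMP2-/- and 324, 431 and 359 in TIMP3-/- kidneys after sham. It read 533, 462 and 526 in WT, 439.9, 474 and 561 in TIMP2-/- and 452, 479 and 660.4 in TIMP3-/- kidneys after UUO, above sham in WT and TIMP3-/- kidneys, while TIMP2-/- sham 3 lay inside the TIMP2-/- UUO range. Its changes were 0.92 ± 0.18 in WT (adjusted p = 0.0014), 0.40 ± 0.18 in TIMP2-/- (adjusted p = 0.0914) and 0.50 ± 0.18 in TIMP3-/- kidneys (adjusted p = 0.0256), and the TIMP3-/- call ended without TIMP3-/- sham array 1 or 3 or UUO array 3, each left out alone (adjusted p = 0.0683 to 0.122). Centring left a TIMP3-/- change of 0.27 (adjusted p = 0.23). The widely expressed Cox6b1 went the other way: it read 22510, 21390 and 20550 in WT, 23090, 22520 and 23360 in TIMP2-/- and 22520, 22600 and 22190 in TIMP3-/- kidneys after sham. On the UUO arrays the values were 17620, 14740 and 20320 in WT, 18090, 17960 and 20270 in TIMP2-/- and 14030, 13370 and 15740 in TIMP3-/- kidneys, below sham in each genotype. The changes of Cox6b1 were -0.30 ± 0.12 in WT (adjusted p = 0.0598), -0.29 ± 0.12 in TIMP2-/- (adjusted p = 0.0592) and -0.65 ± 0.12 in TIMP3-/- kidneys (adjusted p = 0.00032).

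Cox7c, a widely expressed subunit, was the only member with a mean level under an intensity of 100. It read 93.1, 21.9 and 67 in WT, 22.2, 28.3 and 21.3 in TIMP2-/- and 32.3, 28.3 and 22.8 in TIMP3-/- kidneys after sham. It read 142, 112 and 33 in WT, 61.6, 39.5 and 33 in TIMP2-/- and 68.8, 187 and 44.1 in TIMP3-/- kidneys after UUO. Its 2 probe sets were both dim, with mean log2 levels of 5.53 and 4, so its level is poorly measured here. The WT groups overlapped, and the knockouts' UUO values lay above their sham values. Its change in TIMP3-/- kidneys was 1.59 ± 0.59 (adjusted p = 0.0282), and this call ended without TIMP3-/- sham array 2 or 3 or UUO array 2, each left out alone (adjusted p = 0.0588 to 0.159).

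**Figure D4:**
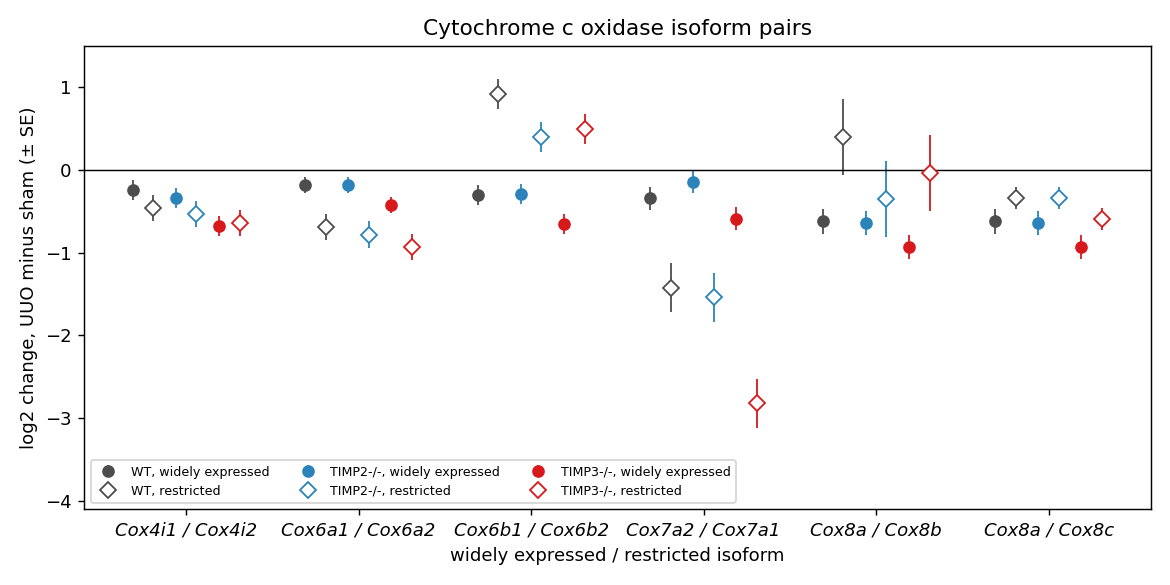
Log2 change, UUO minus sham (points, with the SE of the fit as bars), of 6 pairs of a widely expressed (filled) and a restricted (open) complex IV isoform in WT, TIMP2-/- and TIMP3-/- kidneys. On the probe sets used, Cox7a1 lies far below Cox7a2, Cox6a2 lies below Cox6a1, and Cox6b2 lies above 0 where Cox6b1 lies below it.

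ATP synthase has a catalytic F1 head, which makes ATP, and a membrane part turned by protons, joined by stalks. Of the 5 F1 members 4, 4 and 5 were lower, with medians of -0.44, -0.38 and -0.83. Atp5d, a subunit of the central stalk counted with F1, had the largest mean change. The sham intensities were 18790, 19520 and 17650 in WT, 20590, 22120 and 22130 in TIMP2-/- and 17980, 21060 and 19520 in TIMP3-/- kidneys. The UUO intensities were 12900, 11520 and 16080 in WT, 13960, 13220 and 16380 in TIMP2-/- and 10440, 9794 and 12280 in TIMP3-/- kidneys. No UUO value of Atp5d reached a sham value of its genotype. The fit gave log2 changes of -0.48 ± 0.14 in WT (adjusted p = 0.0134), -0.58 ± 0.14 in TIMP2-/- (adjusted p = 0.0049) and -0.85 ± 0.14 in TIMP3-/- kidneys (adjusted p = 0.000105), and the WT call ended without WT UUO 2 (adjusted p = 0.0779). Atp5e, the smallest F1 subunit, had the smallest mean change and read 10060, 8875 and 9302 in WT, 10410, 9756 and 8984 in TIMP2-/- and 10660, 11530 and 11590 in TIMP3-/- kidneys after sham. Obstructed kidneys read 7418, 6609 and 8440 in WT, 7613, 7544 and 8555 in TIMP2-/- and 6993, 5676 and 7639 in TIMP3-/- kidneys, again with no overlap. Its changes were -0.34 ± 0.13 in WT (adjusted p = 0.0564), -0.30 ± 0.13 in TIMP2-/- (adjusted p = 0.0778) and -0.74 ± 0.13 in TIMP3-/- kidneys (adjusted p = 0.000208). The subunits that form the catalytic sites, Atp5a1 and Atp5b, changed by -0.48, -0.37 and -0.83 and by -0.44, -0.38 and -0.82, and the rotor subunit Atp5c1 by -0.44, -0.43 and -0.91; all were called in each genotype. Their WT calls ended without WT UUO 2 (adjusted p = 0.0695) for Atp5a1, without WT sham array 3 or UUO array 1 or 2, each left out alone (adjusted p = 0.0585 to 0.115) for Atp5b and without WT sham array 1 or 2 or UUO array 2, each left out alone (adjusted p = 0.0535 to 0.0993) for Atp5c1. Without WT UUO 2 none of the 5 F1 members was called in WT kidneys (median -0.33). The TIMP2-/- calls ended without TIMP2-/- sham array 1, 2 or 3 or UUO array 1 or 2, each left out alone (adjusted p = 0.066 to 0.141) for Atp5a1, without TIMP2-/- sham array 1, 2 or 3 or UUO array 1 or 2, each left out alone (adjusted p = 0.0738 to 0.148) for Atp5b and without TIMP2-/- sham array 2 or UUO array 1 or 2, each left out alone (adjusted p = 0.0507 to 0.0758) for Atp5c1.

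Of the 12 members of the membrane part and stalk 5, 3 and 10 were lower (41.7%, 25% and 83.3%, against 16.2%, 22% and 38.8% of all genes), with medians of -0.38, -0.23 and -0.54. The TIMP2-/- share was thus near that of all genes, and the WT count was 2 without WT UUO 2. Atp5g1, which with Atp5g2 and Atp5g3 encodes the same mature protein of the rotating c ring, had the largest mean change. It read 11170, 11090 and 10120 in WT, 12200, 12370 and 12850 in TIMP2-/- and 10700, 11790 and 12400 in TIMP3-/- kidneys after sham. In obstructed kidneys it read 6469, 4843 and 8688 in WT, 6575, 6072 and 8292 in TIMP2-/- and 4466, 3510 and 5639 in TIMP3-/- kidneys. UUO and sham values were separate in each genotype, and all TIMP3-/- UUO values lay below the TIMP2-/- ones. Its log2 changes were -0.73 ± 0.20 in WT (adjusted p = 0.00987), -0.85 ± 0.20 in TIMP2-/- (adjusted p = 0.00457) and -1.38 ± 0.20 in TIMP3-/- kidneys (adjusted p = 3.91e-05), and the WT call ended without WT UUO 2 (adjusted p = 0.0611). The other c ring genes changed less: Atp5g2 by -0.20, -0.38 and -0.50 and Atp5g3 by -0.23, -0.24 and -0.48, called in TIMP3-/- kidneys alone, the Atp5g2 call ending without TIMP3-/- UUO 2 (adjusted p = 0.0613). Atp5mpl, a small membrane subunit, had the smallest mean change and read 8468, 4778 and 7598 in WT, 5537, 5457 and 5651 in TIMP2-/- and 6855, 5527 and 6503 in TIMP3-/- kidneys after sham. On the UUO arrays the values were 6694, 5287 and 5496 in WT, 4902, 5080 and 4801 in TIMP2-/- and 4995, 5305 and 5133 in TIMP3-/- kidneys. The WT groups overlapped, with a range of 4778 to 8468 among the sham arrays, and the other genotypes were separate. The changes were -0.22, -0.17 and -0.29, none called. Atp5o, the subunit that ties the outer stalk to F1, changed by -0.49, -0.54 and -0.95, called in each genotype, and Atp5pb, the outer stalk's long subunit, by -0.66, -0.11 and -0.39, called in WT and TIMP3-/- kidneys. The Atp5o call ended without WT sham array 1 or 2 or UUO array 2, each left out alone (adjusted p = 0.054 to 0.108) in WT and without TIMP2-/- UUO 1 or TIMP2-/- UUO 2, each left out alone (adjusted p = 0.0518 to 0.0533) in TIMP2-/- kidneys, and the Atp5pb call ended without TIMP3-/- sham array 1 or UUO array 1 or 3, each left out alone (adjusted p = 0.0597 to 0.115) in TIMP3-/- kidneys.

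Obstructed TIMP3-/- kidneys had lower levels of 26 of 85 members than obstructed TIMP2-/- kidneys and higher levels of none, where 6.09% of all genes were lower and 1.98% higher. The median difference over members was -0.38, against -0.11 over all genes. All 3 TIMP3-/- values lay below all 3 TIMP2-/- values for 53 members (21.1% of all genes did so). The lower members were 4 of 6 core and 10 of 27 accessory subunits of complex I, 2 of 5 assembly factors, 2 of 4 of complex II, 2 of 9 of complex III, 2 of 17 of complex IV, 3 of 5 of F1 and 1 of 12 of the membrane part and stalk. Cox7a1 differed most, by -1.34 (95% interval -1.98 to -0.70, adjusted p = 0.0229). Ndufa12 differed by -0.82 (-1.12 to -0.51, adjusted p = 0.0112), Cyc1 by -0.81 (-1.25 to -0.38, adjusted p = 0.0313) and Sdhb by -0.78 (-1.21 to -0.35, adjusted p = 0.033). In the same comparison 13 of 16 proximal tubule markers were lower (median -1.09) and 6 of 12 fibroblast markers were higher; their part in the members' difference was not tested. The other bright probe sets of Ndufa12 differed by -1.28 and -0.36 and the dim one by 0.66, and the set at -1.28 already differed by -0.72 between the sham groups.

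This count moved with single arrays in both directions. It was 52 (18.4% of all genes lower) without TIMP3-/- UUO 3, 2 without TIMP2-/- UUO 1 (1.85%), 2 without TIMP2-/- UUO 2 (1.68%) and 0 without TIMP2-/- UUO 3 (0.121%), TIMP3-/- UUO 1 (0.169%) or TIMP3-/- UUO 2 (0.105%). Arrays outside the comparison, which enter through the shared estimate of the spread, moved it too. It was 42 without WT UUO 2 (9.38% of genes) and 38 without WT UUO 3 (8.34%), and with any 1 of the other 10 arrays left out it was 10 to 26, the lowest without TIMP2-/- sham 2 (3.45%). With only the 6 arrays of these groups in the fit it was 0, so none of the 26 calls held in every alternative.

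**Figure D5:**
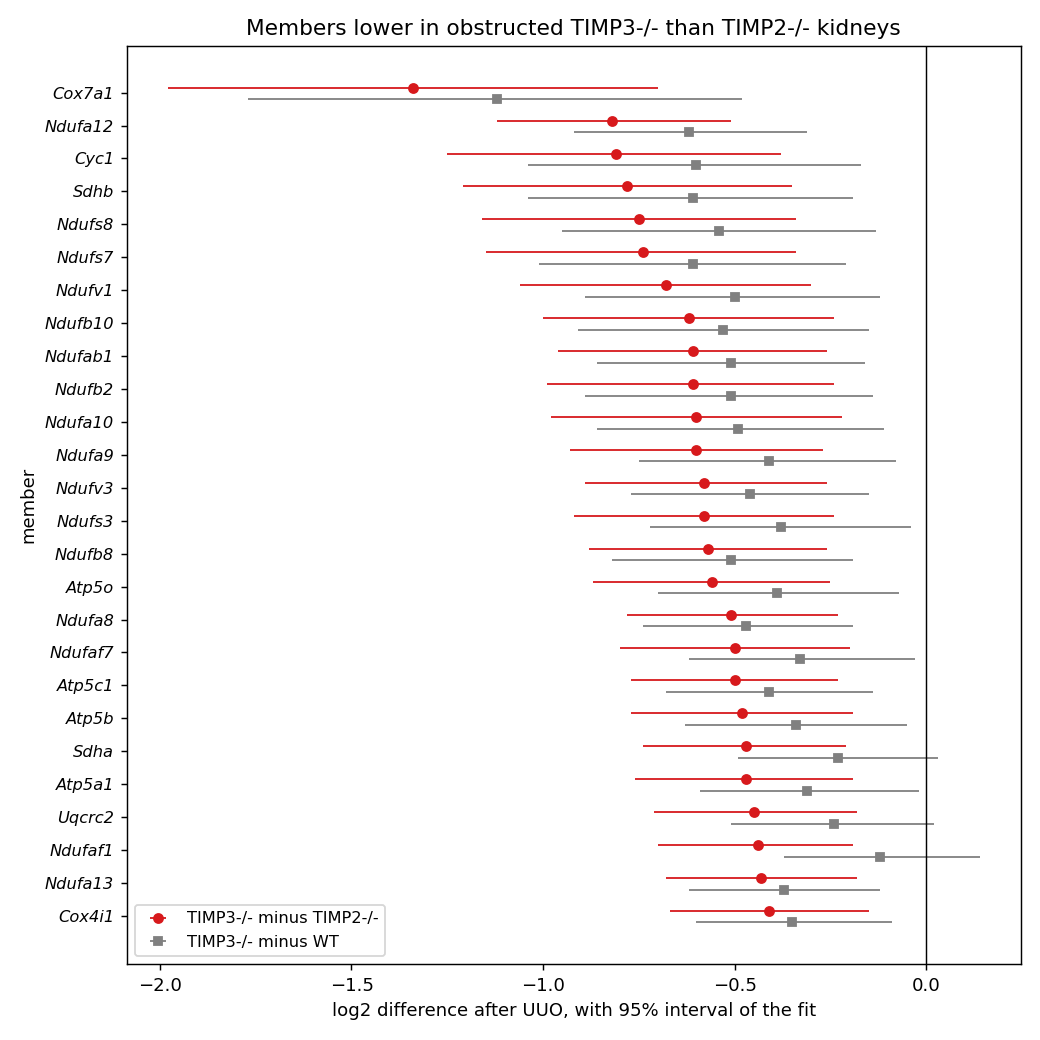
Log2 difference after UUO with the 95% interval of the fit for the 26 members called lower in TIMP3-/- than in TIMP2-/- kidneys (red), in order of size, with the difference of TIMP3-/- from WT for the same members (grey), of which none was called. The differences from TIMP2-/- run from -1.34 for Cox7a1 to -0.41 for Cox4i1, and the grey points lie nearer 0; both sets of differences share the TIMP3-/- UUO arrays.

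Against obstructed WT kidneys no member of the obstructed TIMP3-/- kidneys was called (0.395% of all genes were). Over all 12393 genes the median difference was -0.07 and 7325 differences were below 0. At an unadjusted p under 0.05, 1545 genes were lower and 1006 higher. Over the members the median difference was -0.31, 79 of 85 differences were below 0, and 43 were lower and 0 higher at that threshold. The smallest adjusted p was that of Ndufa12: its values of 5489, 6200 and 6938 in TIMP3-/- and 9953, 7366 and 11620 in WT kidneys gave a difference of -0.62 (-0.92 to -0.31, adjusted p = 0.0713). Next were Cox7a1 at -1.12 (-1.77 to -0.48, adjusted p = 0.103), Ndufa8 at -0.47 (adjusted p = 0.11), Ndufb8 at -0.51 (adjusted p = 0.126) and Ndufc1 at -0.51 (adjusted p = 0.131). Of these, Ndufa12, Ndufa8 and Ndufc1 were separate between the groups on all arrays. All TIMP3-/- UUO values lay below all WT UUO values for 9 members (6.41% of all genes did so). Without WT UUO 2, 30 members were called lower, where 7.24% of all genes were lower, 15 of them accessory subunits of complex I. The count was also 30 without TIMP3-/- UUO 3 (7.77% of genes) and 0 without WT UUO 3 (0.0323%).

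Obstructed TIMP2-/- and WT kidneys differed in 0 members (0.0242% of all genes called), with 1 lower and 2 higher at an unadjusted p under 0.05 and a median difference of 0.07. Of all 12393 genes 151 were lower and 261 higher at that threshold, with a median of 0.04. Among sham kidneys no member was called in any of the 3 comparisons of genotypes: TIMP2-/- against WT (0.00807% of genes called), TIMP3-/- against WT (0.0161%) and TIMP3-/- against TIMP2-/- (0.0403%). At an unadjusted p under 0.05 the member counts lower and higher were 10 and 2, 1 and 1, and 1 and 2, and the medians were 0.06, 0.04 and -0.02. Of all 12393 genes the counts were 1532 and 1918, 729 and 565, and 138 and 275, with medians of 0.14, 0.11 and -0.03. Among members the smallest adjusted p of the sham comparisons was 0.131, for Ndufa6 in TIMP2-/- against WT kidneys.

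The test of whether the response to UUO itself differed between genotypes called no member. The response of TIMP3-/- minus that of WT had a median of -0.35 over members, against -0.18 over all genes, with 28 members lower and 0 higher at an unadjusted p under 0.05 and 0% of all genes called. The smallest p-values were those of Cox7a1, with a difference of -1.40 (-2.31 to -0.49, adjusted p = 0.163), Ndufa12 (-0.64), Ndufv1 (-0.70), Sdhd (-0.60) and Ndufaf7 (-0.54), all with the same adjusted p of 0.163. The response of TIMP3-/- minus that of TIMP2-/- had a median of -0.41, against -0.07 over all genes, with 29 lower and 0 higher at an unadjusted p under 0.05, 0.00807% of genes called and a smallest adjusted p of 0.259. The response of TIMP2-/- minus that of WT had a median of 0.03, with 0 lower and 5 higher at an unadjusted p under 0.05 and 0% of genes called. For the responses the unadjusted counts are given without the share of all genes at that threshold. They therefore do not set the members apart from other genes. Without TIMP3-/- UUO 3 the member calls in the first 2 of these comparisons were 7 and 3. The share of all genes called in that fit is not given here, so these calls are not set against other genes. The larger fall in TIMP3-/- kidneys (the lowest of the 3 changes for 73 members) therefore passed a test of the difference for none of them.

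The probe sets of a member mostly changed together. Of 41 members with several bright probe sets, 40 had all of them changing in the same direction in each single UUO comparison and 38 in all 3, the exceptions being Ndufa7 in WT, Ndufs4 in TIMP2-/- and Ndufaf4 in TIMP3-/- kidneys. They lay within 0.3 on the log2 scale for 37, 36 and 33 members. Uqcr10, a small complex III subunit, had the widest range: the probe set used changed by -0.67, -0.53 and -1.04 in WT, TIMP2-/- and TIMP3-/- kidneys, and its 2 other probe sets by -1.18, -1.02 and -2.08 and by -1.43, -1.23 and -2.31. The signed log2 change of a member was not ordered by its brightness, with Spearman correlations of 0.13, -0.02 and -0.03 over the 85 members, which share the arrays. The size of the change without its sign was not set against brightness.

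Genes outside the membership that serve the same organelle were counted from lists, against 16.2%, 22% and 38.8% of all genes lower and 16.8%, 15.9% and 25.7% higher. Of 28 assembly factors of the complexes beyond the Nduf names, 7, 10 and 20 were lower in WT, TIMP2-/- and TIMP3-/- kidneys and 0, 0 and 1 higher, with Ecsit (-0.95, -1.09 and -2.12), Acad9 (-1.19, -0.74 and -1.54) and Uqcc1 (-0.73, -0.79 and -1.59) changing most on average; Ecsit and Acad9 act with Ndufaf1 on complex I. Of 14 genes for the mobile electron carriers and coenzyme Q synthesis, 8, 6 and 12 were lower, led by Coq8a (-1.08, -1.15 and -2.14), Coq9 (-0.93, -1.21 and -1.88) and Etfb (-0.74, -0.80 and -1.47). Of 17 genes of the tricarboxylic acid cycle and of the entry of pyruvate into it, 14, 9 and 14 were lower. The largest mean changes were those of Pcx (-1.54, -1.55 and -2.85), Idh2 (-0.85, -0.93 and -1.65) and Ogdh (-0.81, -1.03 and -1.31). Pcx, pyruvate carboxylase, feeds the cycle and is not an enzyme of the cycle itself. Of 74 mitochondrial ribosome genes 17, 20 and 58 were lower and 2, 1 and 1 higher; Mrpl4 (-0.71, -0.89 and -1.45) and Mrpl12 (-0.62, -0.79 and -1.39) fell, and Mrpl33 (0.73, 0.99 and 1.02) rose in each genotype. In WT and TIMP2-/- kidneys the lower share of this list, 23% and 27%, was near that of all genes, and in TIMP3-/- kidneys it was 78.4%. Medians over the ribosome list were -0.25, -0.21 and -0.71, against -0.44, -0.38 and -0.77 over the members.

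Of 20 genes for carriers and membrane organisation 7, 5 and 14 were lower and 0, 1 and 0 higher, with Opa1 (-1.30, -0.49 and -0.95), Ckmt1 (-0.35, -0.98 and -1.31, not called in WT) and Immt (-0.92, -0.46 and -1.07) changing most, and the TIMP2-/- lower share of 25% was near the 22% of all genes. Of 18 regulators of mitochondrial biogenesis 7, 8 and 10 were lower and 1, 1 and 4 higher. The largest changes among these were in the nuclear receptors Ppara (-1.77, -1.53 and -2.71) and Esrrb (-1.30, -1.67 and -2.82) and the mitochondrial deacetylase Sirt3 (-1.22, -1.33 and -2.34), each called in every genotype. Of 10 genes known to be induced by hypoxia, 3, 1 and 5 were lower and 1, 0 and 1 higher, and Vegfa changed by -0.68, -0.78 and -0.59, Bnip3 by -0.87, -0.13 and -0.88 (not called in TIMP2-/-) and Pfkfb3 by 0.57, 0.05 and 0.73 (not called in TIMP2-/-).

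Other marker lists were counted against the same shares of all genes, 16.2%, 22% and 38.8% lower and 16.8%, 15.9% and 25.7% higher. Of 16 hepatocyte markers 4, 3 and 1 were higher and 0, 1 and 3 lower after UUO. The hepatocyte counts higher were near those shares in WT and TIMP2-/- kidneys and below them in TIMP3-/- kidneys. The counts lower were below them in each genotype. Of 5 adipocyte markers 4, 1 and 4 were higher, with sums of 839 to 2220 on sham and 2440 to 18700 on UUO arrays. The 3 red cell markers measured were lower in each genotype, with sums of 990 to 1630 and 475 to 647. The members' median on WT UUO 2, the array with the hepatocyte markers, was the lowest of the WT UUO arrays, and its proximal tubule sum of 81900 was the lowest too, against 117000 and 167000 on WT UUO 1 and WT UUO 3. The part of any of these transcripts in the members' values was not tested.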

How the data were processed

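The deposited table held 18 arrays (Affymetrix Mouse430A_2, total RNA from whole frozen kidneys) as linear intensities made by the authors with RMA, per the submitters' processing notes; the RMA version and the step back to a linear scale are not given in the sources used here. Log2 of the deposited intensities was taken with no pseudocount or further scaling. Of 22690 probe sets, 64 were controls, 20380 had 1 symbol, 691 several and 1555 none; genes were read from the first of these classes, by the brightest probe set on average. limma 3.58.1 (R 4.3.3) fitted 6 group means over 18 arrays (residual df 12), with moderated tests and Benjamini-Hochberg adjustment over 12393 genes in each of 12 comparisons. Comparisons between genotypes share their groups of arrays, as do the responses. The number of arrays, 3 per group, limits the precision. Each p-value sets a difference against 1 estimate of the gene's spread between kidneys, shared by all 6 groups, not the spread of the compared kidneys alone. The groups were not alike in spread: arrays correlated at 0.984 to 0.997 within TIMP2-/- UUO and at 0.955 to 0.975 within TIMP3-/- UUO. Tested on simulated data for the TIMP3-/- UUO comparison, the fit recovered 9% of genes changed by 0.5 and 79% of those changed by 1 on the log2 scale, with 5.4% false calls. Only 100 genes of each size were changed there, whereas 64.6% of all genes were called in the data for this comparison. The adjustment was therefore stricter in the simulation, and the recovered shares do not carry over to these data.

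The members and lists were chosen with earlier results of these data known. Values on every array were given for the member with the largest and the one with the smallest absolute mean change of each complex, members that rose, the 5 with the smallest p of TIMP3-/- against WT after UUO, the 5 of the response of TIMP3-/- minus WT, and isoform pairs; a few others were added after their values were seen (Sdhb, for its promoter, and Cox6c). From the other lists the 3 genes of largest mean change were named. Replicate numbers were checked by the correlation of same-numbered arrays' deviations from their group means: 24 of 45 pairs of arrays exceeded 0.1 (range -0.61 to 0.67), and all 3 did so in 3 of 15 pairs of groups (TIMP2-/- sham with TIMP2-/- UUO, 0.33, 0.32 and 0.57; WT UUO with TIMP2-/- UUO, 0.21, 0.26 and 0.45; WT UUO with TIMP2-/- sham, 0.19, 0.12 and 0.22). Among the comparisons made, the criterion was met for UUO against sham in TIMP2-/- kidneys and for TIMP2-/- against WT after UUO, and not for the others. It was also met for WT UUO with TIMP2-/- sham, which share neither genotype nor operation. The labels state no pairing, and this check cannot show that same-numbered arrays were paired.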

Additional observations from a re-analysis of the deposited data

How the results depend on the processing

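Of the counts recomputed over the 12 comparisons, 176 stayed within 1.5 times the reported one, 14 were lower and 8 higher. Most of the 12 comparisons had a reported count of 0, which could not become lower, and a 0 that stayed 0 was counted among the 176. That number is therefore no measure of how steady the other counts were, which are given next. For UUO against sham in WT kidneys, 47 members lower became 74 with arrays centred on the gene median and 22 with only the arrays compared in the fit. The count was 21 (8.21% of all genes lower) without WT UUO 2, WT sham 3 and TIMP3-/- UUO 2 together. Leaving out 1 of the arrays compared gave 22 to 62. In TIMP2-/- kidneys 45 became 68 with centring and 18 to 48 with 1 such array left out, and in TIMP3-/- kidneys 74 became 77 and 69 to 72. For TIMP3-/- against TIMP2-/- after UUO, 26 became 13 with suffixed probe sets left out and 8 without the 3 arrays (3.37% of all genes lower). It became 0 with only the arrays compared and 0 to 52 with 1 of them left out, or 42 without WT UUO 2. For TIMP3-/- against WT after UUO, 0 became 8 without the 3 arrays (2.24% of all genes lower) and 0 to 30 with 1 compared array left out. The responses gave 0 to 7 (TIMP3-/- minus WT) and 0 to 3 (TIMP3-/- minus TIMP2-/-). Fewer arrays enter some of these fits; otherwise the cause was not tested. Calls present under every alternative numbered 17 of 49 in WT, 17 of 46 in TIMP2-/-, 65 of 76 in TIMP3-/- kidneys and 0 of 26 between TIMP3-/- and TIMP2-/- after UUO. Centring moved the median of all genes to -0.28, -0.33 and -0.42 in the 3 UUO comparisons. A fit with the replicate number as a replicate block gave 52, 49 and 74 members lower after UUO and 35 between TIMP3-/- and TIMP2-/-, and changed no other count. The labels state no such pairing, and the criterion of the check was met for 2 comparisons only (UUO against sham in TIMP2-/- kidneys, TIMP2-/- against WT after UUO).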
